A study of Mus musculus with 6 samples.

Results

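Etfa, Etfb, Etfdh, Acadm, Acadl, Acadvl, Acads, Hadha, Hadhb and Cpt1a encode the electron-transfer flavoprotein, its membrane partner and central enzymes of mitochondrial fatty acid oxidation. These 10 genes were taken by symbol from the 41921 rows of the deposited count table, and each symbol matched a single row. They were chosen by measured values: Etfb was among the 10 largest increases with albiflorin in an earlier analysis of the same counts, and the others were named as its pathway partners. Their differences between the groups are therefore given as a description, without p-values.

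The RNA came from RAW264.7 cells, a murine macrophage line that forms osteoclasts, the cells that resorb bone, when given the cytokine RANKL. The 3 albiflorin libraries and the 3 RANKL libraries all carried the wild-type genotype and the osteoclast differentiation label. The protocol text shared by every sample gives RANKL at 50 ng/mL to cells 3 days past confluence. Albiflorin is a monoterpene glycoside of peony root; the labels state neither its dose and time nor whether it was given together with RANKL. Untreated cells were not analysed here, and the model is a single transformed cell line. The labels do not say whether the replicates are separate cultures, and every test here covers just the spread among 3 libraries a group, which may be technical.

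The albiflorin libraries held 15200418, 13708041 and 14311565 counts, and the RANKL libraries 13673284, 15489482 and 14663862. Summed over the 8 macrophage markers found in the table, the normalised read counts (CPM, scaled to library size) were 3405 to 3563 in albiflorin libraries and 3289 to 3597 in RANKL libraries. The 10 osteoclast markers summed to 260.2 to 279.7 CPM with albiflorin and 278 to 301 CPM with RANKL, with Calcr at 0 in all 6 libraries. In each of these lists 1 gene was called higher and 1 lower with albiflorin, of 6 macrophage and 8 osteoclast markers that could be tested. Markers of other cell types were near 0. Adipocyte markers summed to 0.352 to 0.966 CPM with albiflorin and 0.147 to 0.701 CPM with RANKL, and Adipoq, Lep and Cidec had no count. Hepatocyte markers had no count with albiflorin and at most 0.0675 CPM with RANKL. Stromal markers reached 0.396 CPM with albiflorin and 0.255 CPM with RANKL, and lymphocyte markers 0.659 CPM with albiflorin and 0.701 CPM with RANKL.

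In β-oxidation, Cpt1a on the mitochondrial outer membrane commits long-chain fatty acids to import, acyl-CoA dehydrogenases of different chain-length preference take the first electrons, and the trifunctional protein of Hadha and Hadhb completes the cycle for long chains. The dehydrogenases hand their electrons to electron-transfer flavoprotein (ETF), a matrix heterodimer of an alpha subunit (Etfa) and a beta subunit (Etfb) that carries a flavin cofactor. ETF is re-oxidised by ETF-ubiquinone oxidoreductase (Etfdh), which passes the electrons into the respiratory chain. Loss of any of these ETF components in humans blocks many flavin-linked dehydrogenases together.

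Etfb (MGP_C57BL6NJ_G0032599, chromosome 7, 45651755 to 45666978, forward strand, in the deposited coordinates) overlaps another annotated gene. Gm45233 (45651800 to 45672765, same strand) is a readthrough gene that starts inside Etfb and runs on past its end. In GENCODE M21 on GRCm38, 617 of the 893 bases of the principal Etfb transcript (69.1%) are also exonic in Gm45233. Exons 2 to 5 are wholly shared, and 276 bases are not, 45 of them at the 5′ end and 231 in exon 6. The stretch below is shown because it spans the point where Etfb can be told from its neighbour. It joins the last 60 bases of exon 5 (chr7:43456578-43456637) to the 168 coding bases of exon 6 (chr7:43457570-43457737), GRCm38, forward strand, from the GENCODE M21 transcript. Lower case marks bases shared with Gm45233 and capitals mark bases of Etfb that are not exonic in Gm45233.
Etfb: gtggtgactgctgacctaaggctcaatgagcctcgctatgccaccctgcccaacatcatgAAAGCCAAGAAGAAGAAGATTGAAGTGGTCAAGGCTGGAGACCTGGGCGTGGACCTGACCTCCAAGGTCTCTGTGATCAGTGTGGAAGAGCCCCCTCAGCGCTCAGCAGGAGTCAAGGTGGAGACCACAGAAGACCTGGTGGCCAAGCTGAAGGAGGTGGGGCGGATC

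**Figure D1:**
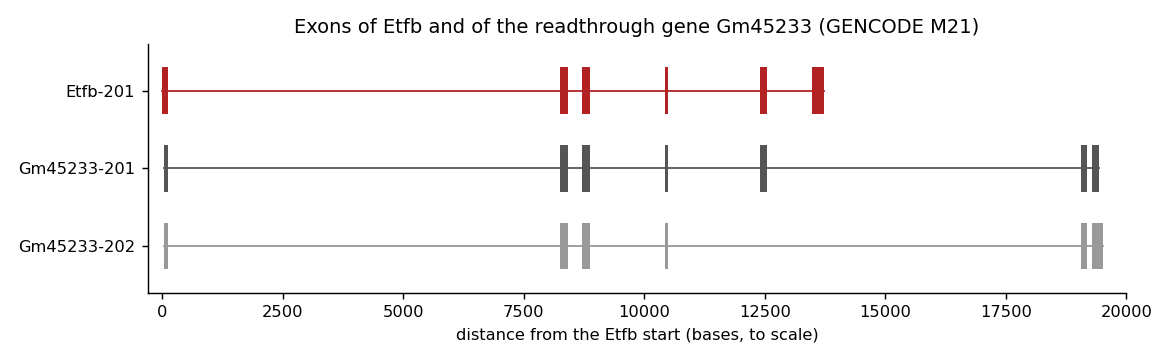
Exons (boxes) of the principal Etfb transcript and of 2 transcripts of the readthrough gene Gm45233, drawn to scale against the distance in bases from the Etfb start. Exons 2 to 5 of Etfb coincide with exons of Gm45233, and exon 6, the last of Etfb, does not.

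No library had a count for Gm45233. At a limit of 3 counts a level of up to 0.219 CPM could be missed in the shallowest library, for counting error only. This limit covers only reads credited to Gm45233. Reads over exons shared with Etfb may have been credited to neither gene or to Etfb, so the limit does not bound the level of Gm45233. The sources used here do not say how reads that touch both genes were treated. An Etfb count may therefore hold a part of its reads, and its level can be understated. With 39 to 104 counts for Etfb and none for Gm45233, no read over the shared bases was credited to both genes. If such reads were dropped, the Etfb counts and their difference between the groups rest mainly on reads reaching the 276 unshared bases. Whether such reads were dropped was not tested. The rows around Etfb held few reads. Cldnd2, upstream, had 2, 3 and 2 counts in albiflorin libraries and 1, 0 and 1 in RANKL libraries. Vsig10l, downstream, had 13, 17 and 13 counts with albiflorin and 22, 20 and 29 with RANKL, a log2 fold change of -0.67 ± 0.34 (SE) that did not pass (edgeR quasi-likelihood test, adjusted p = 0.163). Nkg7, Lim2 and Gm38999 had at most 1 count in any library, Mir7051 at most 3 and an unnamed row within the Etfb span at most 5.

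Of the 10 genes, 3 were called higher with albiflorin (Etfa, Etfb and Acadl) and 2 lower (Acadvl and Cpt1a) in an edgeR quasi-likelihood test with adjusted p under 0.05. Over all 13158 genes tested, 12.4% were called higher and 11.4% lower. For 6 of the 10 genes the albiflorin and RANKL libraries were fully separated, as they were for 40.1% of all tested genes. Because these values chose the set, nothing is read from the counts. All 10 passed the filter on low counts, their median log2 fold change was 0.08, and the median over all tested genes was 0.01. In bulk RNA, fewer cells of a type and less RNA per cell cannot be told apart.

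**Figure D2:**
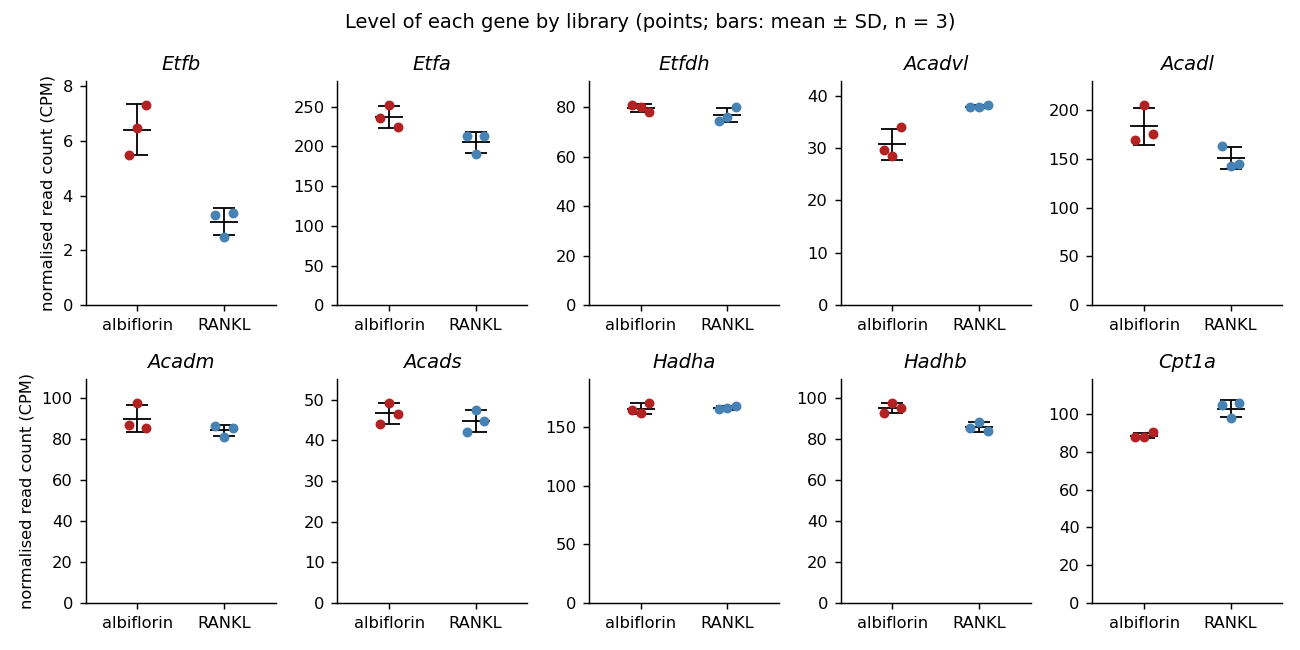
Normalised read count (CPM, each panel on its own axis from 0) of each gene in the 3 albiflorin libraries and the 3 RANKL libraries, with bars for mean ± SD. The albiflorin points lie above the RANKL points for Etfb, Etfa, Acadl and Hadhb, below them for Acadvl and Cpt1a, and among them for the other genes.

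Etfb, the beta subunit of ETF, had 83, 87 and 104 counts in albiflorin libraries and 45, 39 and 50 in RANKL libraries. In CPM these were 5.47, 6.47 and 7.31 with albiflorin, against 3.30, 2.49 and 3.37 with RANKL. Every albiflorin library lay above every RANKL library. The fitted change was 2.10-fold, a log2 fold change of 1.07 ± 0.20 (SE). It was the largest change of the 10 and came from the gene with the fewest counts. Leaving out any single library gave 0.94 to 1.17, and the call held in all 6 cases. Etfb was chosen by these same values, so this describes the libraries and adds no support.

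Etfa, the alpha subunit that pairs with Etfb (MGP_C57BL6NJ_G0035334, chromosome 9, 56068988 to 56130100, reverse strand), stood at 236, 252 and 225 CPM with albiflorin and at 213, 190.1 and 213 CPM with RANKL. The groups did not overlap, and the log2 fold change was 0.21 ± 0.07 (SE). The call ended without albiflorin replicate 1 (0.21), albiflorin replicate 2 (0.16) or RANKL replicate 2 (0.16). It also ended with the replicate number as a block (0.21). A processed pseudogene on chromosome 13 whose description names the same protein had at most 2 counts in any library.

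Etfdh, the iron-sulfur flavoprotein that takes electrons from ETF (MGP_C57BL6NJ_G0027733, chromosome 3, 82327351 to 82355889, reverse strand), had 80.9, 80.1 and 78.0 CPM with albiflorin and 74.5, 76.0 and 80.0 CPM with RANKL. The groups overlapped, and the log2 fold change was 0.05 ± 0.06 (SE). The 3 ETF genes thus ran from a log2 fold change of 1.07 for Etfb to 0.05 for Etfdh, with Etfa between. Per base of mRNA, Etfb stood at 4.23% ± 0.75 of Etfa in albiflorin libraries and at 2.31% ± 0.23 in RANKL libraries (SD, n = 3 each). The Etfb length used includes 617 bases shared with Gm45233, and reads over them may be missing from the Etfb count. These ratios may therefore be understated, which was not tested. Etfdh stood at 19.7% ± 0.93 of Etfa with albiflorin and at 22.0% ± 1.5 with RANKL.

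Among the acyl-CoA dehydrogenases, the long-chain enzyme and the very long-chain enzyme had changes of opposite sign. Acadl, the long-chain enzyme (MGP_C57BL6NJ_G0016507, chromosome 1, 69680486 to 69711361, reverse strand), had 169, 205 and 176 CPM with albiflorin and 164, 143 and 145 CPM with RANKL. The lowest albiflorin library stood just above the highest RANKL library, and the log2 fold change was 0.28 ± 0.08 (SE). The call ended without albiflorin replicate 2 (0.19), RANKL replicate 2 (0.25) or RANKL replicate 3 (0.26).

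Acadvl, the very long-chain enzyme of the inner membrane (MGP_C57BL6NJ_G0018969, chromosome 11, 72626748 to 72631976, reverse strand), had 29.7, 28.4 and 34.0 CPM with albiflorin and 37.7, 37.7 and 38.2 CPM with RANKL. The RANKL libraries lay within 1 CPM of each other and above every albiflorin library. The log2 fold change was -0.30 ± 0.09 (SE). The call ended without albiflorin replicate 1 (-0.29), albiflorin replicate 2 (-0.26) or RANKL replicate 2 (-0.31).

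Acadvl overlaps the Wnt-pathway gene Dvl2 on the opposite strand by 2119 bases in the deposited coordinates, and 976 of the 2168 bases of its M21 transcript (45.0%) are exonic in Dvl2. The labels do not say that strand was used in counting, so reads of the pair cannot be told apart. Dvl2 itself had 34.0, 36.5 and 34.5 CPM with albiflorin and 38.9, 34.0 and 37.3 CPM with RANKL. Its groups overlapped, with a log2 fold change of -0.07 ± 0.08 (SE) that did not pass (edgeR, adjusted p = 0.588). Beside Etfb and Acadvl, Hadha shared 75 bases (1.87%) with Garem2 on the opposite strand, and no other gene of the 10 shared exonic bases with another gene.

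Acadm, the medium-chain dehydrogenase (MGP_C57BL6NJ_G0028414, chromosome 3, 163034862 to 163058266, reverse strand), had 87.1, 97.8 and 85.3 CPM with albiflorin and 86.2, 81.0 and 85.5 CPM with RANKL. Acads, the short-chain enzyme (MGP_C57BL6NJ_G0030387, chromosome 5, 122493722 to 122502773, reverse strand), had 44.1, 49.3 and 46.6 CPM with albiflorin and 42.1, 47.6 and 44.8 CPM with RANKL. For both genes the groups overlapped. The log2 fold changes were 0.10 ± 0.07 (SE) for Acadm and 0.06 ± 0.08 (SE) for Acads, and neither was called.

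Within each library the 4 dehydrogenases divided their summed level per base of mRNA unevenly. Acadl took 53.5% ± 1.5 with albiflorin and 48.7% ± 2.0 with RANKL (SD, n = 3 each). Acadvl took 7.97% ± 1.2 with albiflorin and 10.8% ± 0.39 with RANKL. Neither pair of groups overlapped in these shares. Acadm held 24.6% with albiflorin and 25.5% with RANKL, and Acads 14.0% with albiflorin and 14.9% with RANKL; in both the libraries of the groups overlapped. The ratio of Acadl to Acadvl was 6.45, 8.18 and 5.85 in albiflorin libraries and 4.90, 4.30 and 4.29 in RANKL libraries. Reads over the bases shared with Dvl2 may be missing from the Acadvl count or added to it. Its level per base, and so these shares and ratios, is uncertain to that extent, which was not tested.

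Hadha, the alpha subunit of the trifunctional protein (MGP_C57BL6NJ_G0029814, chromosome 5, 29818605 to 29857005, reverse strand), had 164, 163 and 171 CPM with albiflorin and 165, 166 and 168 CPM with RANKL. It had the smallest difference of the 10, with a log2 fold change of -0.01 ± 0.06 (SE). Its sign turned without albiflorin replicate 2 (0.0051).

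Hadhb, the beta subunit that carries the thiolase (MGP_C57BL6NJ_G0029815, chromosome 5, 29857091 to 29889562, forward strand), had 92.8, 97.7 and 95.3 CPM with albiflorin and 85.3, 88.4 and 83.8 CPM with RANKL. The groups did not overlap, yet the log2 fold change of 0.15 ± 0.06 (SE) was not called. Per base of mRNA, Hadhb ran at 1.13 ± 0.05 times Hadha with albiflorin and at 1.01 ± 0.03 times with RANKL (SD, n = 3 each). The genes lie head to head, with starts separated by 85 bases in the deposited coordinates. Rows that name the Hadhb protein elsewhere include an unannotated gene on chromosome 2 with 82, 71 and 78 counts in albiflorin libraries and 51, 108 and 66 in RANKL libraries, and a chromosome 15 pseudogene with at most 14 counts. Reads could be split between these copies and Hadhb.

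Cpt1a, the carnitine palmitoyltransferase of the outer membrane (MGP_C57BL6NJ_G0025036, chromosome 19, 69461 to 131183, forward strand), had 87.6, 87.8 and 90.3 CPM with albiflorin and 105, 97.7 and 106 CPM with RANKL. Every albiflorin library lay below every RANKL library, and the log2 fold change was -0.21 ± 0.06 (SE). The call ended without albiflorin replicate 1 (-0.22), RANKL replicate 1 (-0.20) or RANKL replicate 3 (-0.19).

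Across all genes the fold change moved with transcript length: over the 10475 tested genes with an mRNA length, Spearman's rho between length and log2 fold change was -0.62, a description across genes, which are not independent replicates. Short mRNAs tended to be higher with albiflorin and long mRNAs lower. Among the 10 genes, Etfb had the shortest mRNA (893 nt) and Cpt1a the longest (4317 nt). When each library's own trend on mRNA length was removed, Etfb remained at 0.74 and Acadvl at -0.39, and both were still called. Etfa moved to -0.01, Acadl to 0.16 and Cpt1a to -0.13, and none of these was called. Etfdh and Acadm moved to -0.01, Acads to -0.08, Hadha to 0.07 and Hadhb to 0.04, also without a call.

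**Figure D3:**
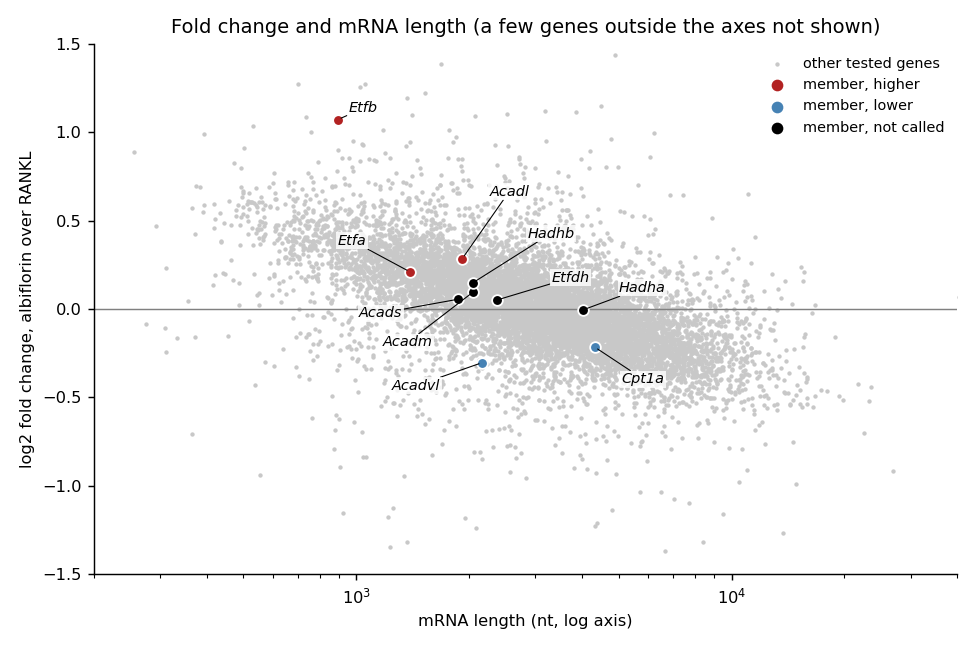
Log2 fold change, albiflorin over RANKL, against mRNA length (nt, log axis) for tested genes (grey) and for the 10 named genes, coloured by call. The grey points slope downwards from short to long mRNAs, with Etfb at 893 nt near their upper edge and Acadvl at 2168 nt towards their lower edge.

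Removing instead the trend on the gene length listed in the deposited table left Etfb at 0.80, Acadvl at -0.39 and Cpt1a at -0.20, all called. Under that setting Etfa (0.03) and Acadl (0.13) were not called, and Hadhb (0.25) was. The listed length joins all exons of a gene, and it exceeds the mRNA by far for some of the 10: 8730 against 4017 nt for Hadha, 6601 against 2048 nt for Hadhb and 7285 against 2377 nt for Etfdh. Over the 16 alternative settings, Etfb was called in 16, Acadvl in 13, Cpt1a in 12, Acadl in 9, Etfa in 8 and Hadhb in 1. The other genes were called in none. Every setting refits libraries whose values chose the set, so these counts are a description and lend Etfb no support.

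**Figure D4:**
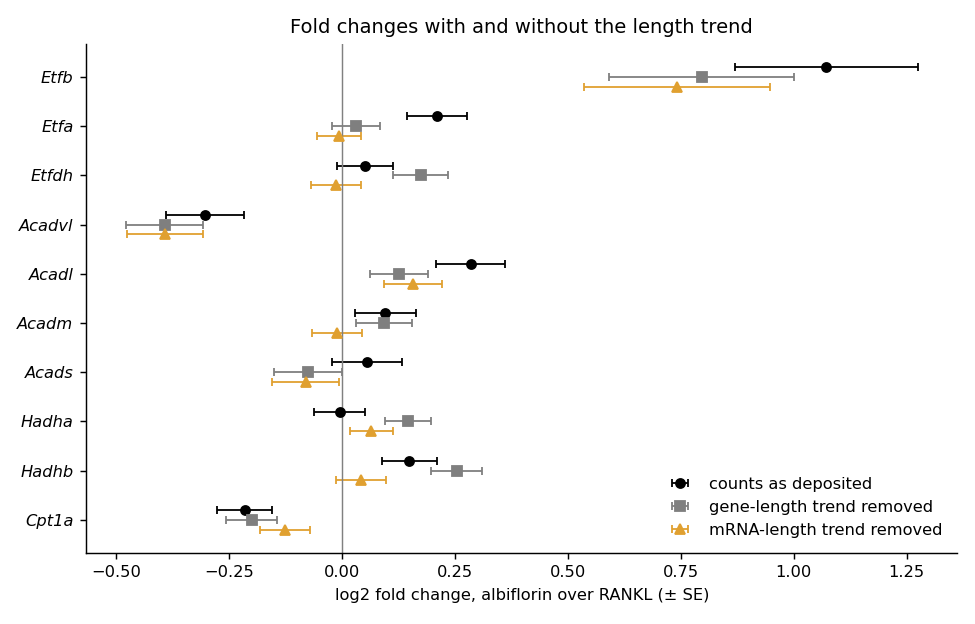
Log2 fold change ± SE, albiflorin over RANKL, of each gene from the counts as deposited (circles), with the gene-length trend removed (squares) and with the mRNA-length trend removed (triangles). Etfb stays between 0.74 and 1.07 and Acadvl between -0.39 and -0.30, while Etfa and Acadl move towards 0.

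Levels of different genes were compared per length. In the authors' FPKM, Etfa led with a mean of 129 with albiflorin and 111 with RANKL, followed by Acadl with 90.8 with albiflorin and 74.8 with RANKL. A middle group of Acadm, Cpt1a, Acads and Hadha lay between 18.9 and 22.9 FPKM with albiflorin and between 19.0 and 23.8 FPKM with RANKL. Within it the libraries of Cpt1a and Acads, and of Acads and Hadha, overlapped with albiflorin, and those of Acadm and Acads, and of Acads and Hadha, with RANKL. Below them, Hadhb had 14.3 FPKM with albiflorin and 12.9 FPKM with RANKL, and Acadvl 11.3 FPKM with albiflorin and 14.0 FPKM with RANKL. Etfdh had 10.9 FPKM with albiflorin, where its libraries overlapped those of Acadvl, and 10.5 FPKM with RANKL. Etfb came last with 5.47 FPKM with albiflorin and 2.61 FPKM with RANKL.

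The order depended on the length used. Read counts scaled to library size and per kilobase of the M21 mRNA kept Etfa and Acadl at the top and Etfb at the bottom in both groups, while Etfdh moved up to rank 6 and Acadvl stood at rank 9 in both. Hadhb moved up to rank 3 with 46.1 ± 0.81 in albiflorin libraries and 42.2 ± 1.3 in RANKL libraries (SD, n = 3 each). On this scale Hadhb, Acadm and Hadha overlapped as neighbours in both groups. Cpt1a stood at 20.3 ± 0.42 with albiflorin and 24.0 ± 0.96 with RANKL, at rank 8, and its RANKL libraries overlapped those of Acads at rank 7 (lowest Acads 22.4, highest Cpt1a 24.8). On either scale Etfb, which forms a heterodimer with Etfa, was the lowest of the 10 in both groups. Both scales divide by a length that includes the bases shared with Gm45233, where reads may have been lost. The level and rank of Etfb may therefore be understated, which was not tested. For Acadvl, the bases shared with Dvl2 leave its level and rank uncertain in the same way.

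The genes whose log2 CPM followed Etfb most closely over the 6 libraries, out of 9512 with a mean of at least 5 CPM, were Aig1 (Pearson r = 0.994), Ftsj1 (0.992), Nup88 (0.992), Nek3 (0.988) and Ccl3 (0.986). All points share their library, and the difference between the groups alone gives high values. The libraries of the groups did not overlap in any of these 5 genes. Choosing genes by correlation with Etfb, whose groups were separated, favoured such a result. Log2 fold changes were 0.19 for Aig1, 0.29 for Ftsj1, 0.13 for Nup88, 0.18 for Nek3 and 0.68 for Ccl3. All were smaller than the 1.07 of Etfb, and Nup88 and Nek3 were not called. The most correlated, Aig1, had 65.9, 66.7 and 68.2 CPM with albiflorin and 58.8, 56.8 and 60.0 CPM with RANKL. Ccl3, a macrophage chemokine, had 107, 109 and 116 CPM with albiflorin and 70.0, 64.1 and 74.2 CPM with RANKL.

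The bases before the transcript starts of the ETF genes are shown because the products of all 3 act together while their log2 fold changes ran from 0.05 to 1.07. Each line gives the 250 bases before the start in RefSeq (GRCm38.p6), 5′ to 3′ on the gene's strand: Etfb at chr7:43443822-43444071, forward strand, Etfa at chr9:55512244-55512493, reverse strand, and Etfdh at chr3:79628768-79629017, reverse strand. Capitals mark the CCAAT box (CCAAT, or ATTGG on the other strand) and the core of the NRF1 site (GCGCATGC on either strand).
Etfb: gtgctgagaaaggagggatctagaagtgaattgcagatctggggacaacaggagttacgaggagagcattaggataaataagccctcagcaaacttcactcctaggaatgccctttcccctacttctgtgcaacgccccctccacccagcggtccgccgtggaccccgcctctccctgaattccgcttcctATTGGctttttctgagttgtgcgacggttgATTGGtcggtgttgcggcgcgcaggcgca
Etfa: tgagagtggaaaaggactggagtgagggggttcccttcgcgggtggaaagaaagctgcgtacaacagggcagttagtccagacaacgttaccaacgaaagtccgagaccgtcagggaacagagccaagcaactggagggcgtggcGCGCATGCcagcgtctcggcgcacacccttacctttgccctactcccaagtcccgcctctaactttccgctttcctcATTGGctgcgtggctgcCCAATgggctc
Etfdh: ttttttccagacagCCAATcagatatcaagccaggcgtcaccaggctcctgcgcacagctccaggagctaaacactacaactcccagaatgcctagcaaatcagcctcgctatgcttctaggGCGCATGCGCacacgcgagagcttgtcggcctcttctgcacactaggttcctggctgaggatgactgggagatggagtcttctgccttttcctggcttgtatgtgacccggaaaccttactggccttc

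In the Etfb stretch CCAAT boxes started 59 and 29 bases before the transcript start, both on the other strand. In the Etfa stretch they started 28 and 11 bases before it, with an NRF1 core at 105. Etfdh had a CCAAT box at 236 and overlapping NRF1 cores at 128 and 126. Over 32851 mouse promoters of the same length, searched on both strands, CCAAT was present in 33.8% and the NRF1 core in 2.26%. Acadm also held an NRF1 core, and Cpt1a a CCAAT box.

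Other motifs were searched the same way in all 10 genes. The GC box (GGGCGG, in 32.7% of promoters) was found in Acadl, Acads, Hadha, Hadhb and Cpt1a. Because Hadha and Hadhb lie head to head, their windows cover mostly the same DNA. The only Hadha match is the same site as a Hadhb match, so these genes are not separate finds. The nuclear receptor half-site (AGGTCA, in 14.0%) was found in Acadm, Acadvl and Cpt1a. It forms part of the oestrogen-related receptor site (TNAAGGTCA, in 1.14%), which was found in none of the 10. The AP-1 site (TGANTCA, in 6.75%), the cAMP response element (TGACGTCA, in 1.55%) and the PPAR direct repeat DR1 (a pair of AGGTCA half-sites around a single base, in 0.0335%) were also found in none. These are matches of letters in a short window.

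Genes of the same pathway outside the 10 were taken from 6 lists, of which 89 genes could be tested: 14 were called higher and 8 lower with albiflorin, and their median log2 fold change was -0.0014. Over all tested genes 12.4% were called higher and 11.4% lower, and the counts of the 6 lists stand against this background. Of these 22 calls, 8 held when any single library was left out, and 14 ended without at least 1 library. With the mRNA-length trend removed, Sdhc was the 1 gene still called higher, and Ppard and Acaca the 2 still called lower. With the gene-length trend removed instead, 8 of the related genes were called higher and 3 lower.

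**Figure D5:**
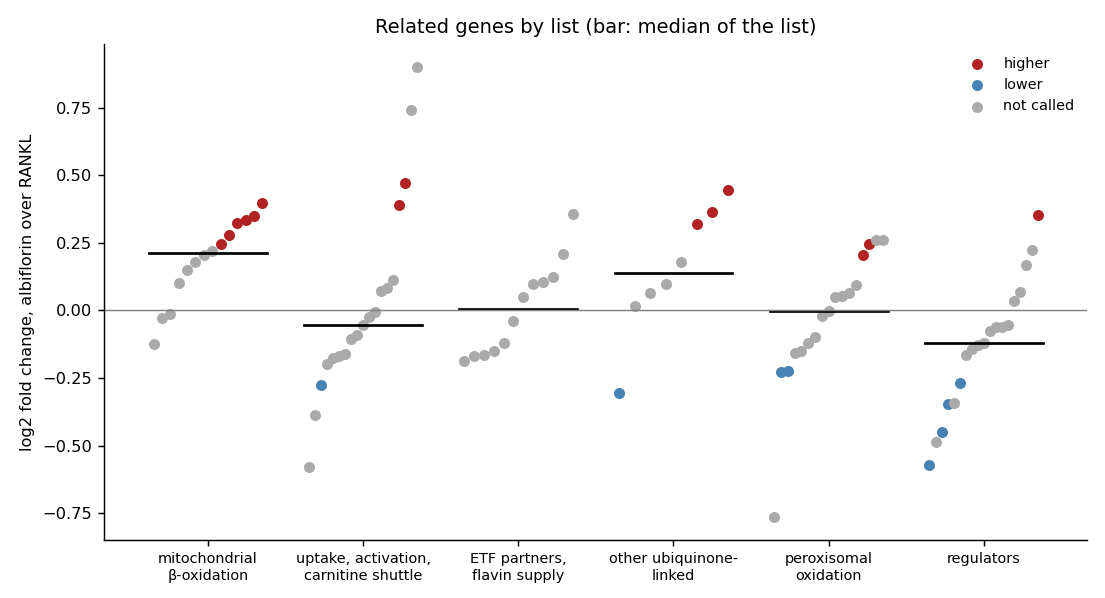
Log2 fold change, albiflorin over RANKL, of the tested related genes in each of 6 lists, with a bar at the list's median and colour for the call. The list of other mitochondrial β-oxidation and related enzymes has its median at 0.21, and the list of regulators at -0.12.

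The list of other mitochondrial β-oxidation enzymes also holds related enzymes outside the cycle itself, such as Acot9, Acot13 and Nudt19. Of its 14 tested genes, 6 were called higher and none lower, with a median log2 fold change of 0.21. Hsd17b10, a hydroxyacyl-CoA dehydrogenase, had 71.2, 73.7 and 61.6 CPM with albiflorin and 55.6, 48.5 and 52.8 CPM with RANKL (log2 fold change 0.40 ± 0.08, SE; edgeR, adjusted p = 0.00245). Ech1, which isomerises dienoyl-CoA, was higher by 0.33 ± 0.07 (SE; edgeR, adjusted p = 0.00413). Acot13 (0.35 ± 0.10) and Eci2 (0.32 ± 0.10) were also called higher, but Acot13 not without albiflorin replicate 2 or RANKL replicate 2 (lowest 0.23), and Eci2 not without those or albiflorin replicate 1 (lowest 0.23). The list's median mRNA was 1749 nt long, and its median log2 fold change with the mRNA-length trend removed was 0.03, with no gene called in that setting. With the gene-length trend removed, Ech1 was still called at 0.20, while Hsd17b10 (0.14), Eci2 (0.23) and Acot13 (-0.03) were not. Decr1, the mitochondrial dienoyl-CoA reductase, had counts in 1 RANKL library at 0.135 CPM and in no other.

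Genes for uptake, activation and the carnitine shuttle gave 2 higher and 1 lower of 19 tested, with a median log2 fold change of -0.05. Dbi, the acyl-CoA binding protein, had 88.1, 98.9 and 80.1 CPM with albiflorin and 64.4, 61.0 and 67.3 CPM with RANKL (0.47 ± 0.08, SE; edgeR, adjusted p = 0.000734). Fabp5, a fatty acid binding protein, was higher by 0.39 ± 0.08 (SE). Both calls ended with the mRNA-length trend removed (0.03 for Dbi and 0.08 for Fabp5), and both held with the gene-length trend removed (0.21 for Dbi and 0.37 for Fabp5). Slc27a4, a fatty acid transport protein, was lower by -0.28 ± 0.09 (SE; edgeR, adjusted p = 0.0366), and albiflorin replicate 2 was the single library without which it was still called (values from -0.31 to -0.23). DESeq2 also did not call Slc27a4, at -0.28, nor did the fit with either length trend removed (-0.26 for gene length and -0.20 for mRNA length). The partners of Cpt1a in the carnitine shuttle were not called: Cpt2 had a log2 fold change of 0.11 ± 0.09 (SE) and the carrier Slc25a20 one of -0.05 ± 0.12 (SE).

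Of 12 tested genes that feed ETF from amino acid breakdown, modify it or supply its flavin, edgeR called 0. In this list 0 genes had an unadjusted p under 0.05, and DESeq2 and limma-voom also called 0. The methyltransferase of the beta subunit, Etfbkmt, had 10.2, 12.9 and 10.1 CPM with albiflorin and 10.3, 11.4 and 9.11 CPM with RANKL. Etfrf1, a small regulator of ETF, had 33.2, 32.6 and 28.7 CPM with albiflorin and 33.3, 24.9 and 30.4 CPM with RANKL. For both the groups overlapped.

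Of 8 tested genes for other enzymes that feed ubiquinone, as Etfdh does, 3 were called higher and 1 lower. Sdhc, a membrane anchor of succinate dehydrogenase, had 208, 222 and 200.4 CPM with albiflorin and 163, 163 and 163 CPM with RANKL (0.37 ± 0.06, SE; edgeR, adjusted p = 0.000728), and 0.38 with the mRNA-length trend removed. Sdhb, the iron-sulfur subunit, was higher by 0.32 ± 0.07 (SE) and stood at 0.05 with that trend removed, where it was not called, but was called at 0.19 with the gene-length trend removed. Sqor, which oxidises sulfide, was higher by 0.44 ± 0.11 (SE), but was not called without RANKL replicate 2 (0.38). Gpd2, the mitochondrial glycerol-3-phosphate dehydrogenase, was lower by -0.30 ± 0.09 (SE), and its call ended without albiflorin replicate 1 or RANKL replicate 2 (-0.40 to -0.23 over the 6 libraries left out in turn).

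Peroxisomal oxidation gave 2 genes higher and 2 lower of 17, with changes of at most 0.25 in size among those called. Phyh (0.25 ± 0.07) and Slc25a17 (0.20 ± 0.07) were higher, and Acox3, an acyl-CoA oxidase (-0.23 ± 0.06), was lower (SE). Each of these calls ended without at least 2 single libraries (0.16 to 0.28 for Phyh and Slc25a17, -0.24 to -0.20 for Acox3), and each ended with either length trend removed. DESeq2 and the fit with no filter on low counts also did not call Slc25a17 (0.20 and 0.19).

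Among 19 tested regulators, 1 was called higher and 4 lower, with a median log2 fold change of -0.12. Acaca makes malonyl-CoA, the inhibitor of Cpt1a, and had 97.6, 89.3 and 119 CPM with albiflorin and 157, 153 and 145 CPM with RANKL (-0.57 ± 0.08, SE; edgeR, adjusted p = 0.000438). Ppard, a nuclear receptor that drives fatty acid oxidation genes, had 32.9, 30.5 and 37.4 CPM with albiflorin and 48.4, 44.2 and 45.1 CPM with RANKL (-0.45 ± 0.09, SE; edgeR, adjusted p = 0.00193). For both the groups did not overlap, and both calls held without any single library. With the mRNA-length trend removed, Acaca stood at -0.32 and Ppard at -0.43, both still called. Foxo1 (-0.35 ± 0.10) and, outside the naming rule, Ppargc1b (-0.27 ± 0.09) were also lower and Prkag1, a subunit of AMP-activated kinase, was higher (0.35 ± 0.11), but these 3 calls ended without at least 3 single libraries each. DESeq2 also did not call Ppargc1b. Over the libraries left out in turn, Foxo1 ran from -0.42 to -0.31, Ppargc1b from -0.31 to -0.20 and Prkag1 from 0.26 to 0.45. Removing the mRNA-length trend left Foxo1 at -0.10, Ppargc1b at -0.22 and Prkag1 at 0.19, none of them called. Ppara, Pparg and Ppargc1a, other drivers of the pathway, were too low to be tested, at no more than 0.191 CPM in any library.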

How the data were processed

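RNA-seq libraries of RAW264.7 cells, 3 labelled albiflorin and 3 labelled RANKL, were grouped by their titles. The authors deposited raw whole-number counts per gene, and FPKM values made from them. HISAT2 2.2.1, featureCounts 2.0.6-p3, DESeq2 1.42.0, fastp and CASAVA 1.8 are named, without their roles, per the submitters' processing notes. The sources used here do not give the genome build, the use of strand or the treatment of reads shared by genes. The identifiers carry Ensembl's prefix for the C57BL/6NJ assembly.

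From the deposited counts, edgeR 4.0.16 (R 4.3.3) with filterByExpr, TMM scaling and the quasi-likelihood F-test on group gave log2 fold changes (albiflorin over RANKL) and Benjamini-Hochberg adjusted p over all tested genes, called under 0.05. The SE was taken as the size of the log2 fold change over the root of F. CPM uses TMM-scaled library sizes. The mRNA lengths are those of principal GENCODE M21 transcripts (79.6% of tested genes had one, and the others took the listed length).

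The members, the lists and the tests were chosen with earlier results of these data known. Genes named were the 10, the 4 called genes of smallest p in each list, rows within 10000 bases of Etfb and the 5 genes most correlated with Etfb. A gene that the rule took is not reported here. Of 108 symbols in the lists, 105 matched rows. Alternatives were RLE scaling, DESeq2 1.42.0, limma-voom (limma 3.58.1), no filter and a filter of 10 counts in every library, leaving out each library, limma on FPKM with a pseudocount of 1 or 0.1 before log2, the replicate block, and removal of lowess trends (span 0.3, genes over 3 in mean log2 CPM) on gene or mRNA length. Libraries of 1 group differed beyond sampling noise, so none was counted as a duplicate. Same-numbered libraries did not deviate together (correlations 0.0219, -0.0433 and -0.0664), so the numbers were not taken as pairs.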

Additional observations from a re-analysis of the deposited data

How the results depend on the processing

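RLE scaling, DESeq2, limma-voom and both filters moved no count by over 1.5 times and reversed none of the named genes. Removing the gene-length trend gave 945 genes higher, 8 related genes higher and 3 lower, and turned Acads to -0.075, Hadha to 0.15, Acot13 to -0.029 and Dvl2 to 0.024. Removing the mRNA-length trend gave 662 genes higher and 722 lower, against 1631 and 1496 in the main test, 1 related gene higher and 2 lower, and 1 of the 10 genes higher and 1 lower. It turned Etfa to -0.0071, Etfdh to -0.013, Acadm to -0.011, Acads to -0.080, Hadha to 0.065, Acot13 to -0.043 and Dvl2 to 0.058; the cause of the length trend was not tested. On log2(FPKM + 1) 901 genes were lower, and on log2(FPKM + 0.1) 909, with 2 related genes lower and 1 of the 10 higher in each. With the replicate number as a block, 1358 genes were higher, 1214 lower and 5 related genes lower, and 2547 of the main calls were shared; the numbers pair no libraries by the labels or by the data.

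Leaving out 1 library at a time gave 984 to 1753 genes higher and 914 to 1644 lower, 7 to 13 related genes higher and 2 to 8 lower, and 1 to 3 of the 10 genes higher and 0 to 2 lower. Hadha ran from -0.028 to 0.0051, turning without albiflorin replicate 2. A library left out leaves 2 in its group. Etfb, at 39 to 104 counts, is the gene of the 10 whose precision depth limits most.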
